A study of Mus musculus with 71 samples.

Results

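New fatty acid synthesis was followed through 10 genes in adipocytes of the mouse lines 3T3-L1 and C3H/10T1/2: Fasn, Acaca, Acacb, Acly, Scd1, Scd2, Elovl6 and Me1, which encode enzymes, and Srebf1 and Mlxipl, which encode transcription factors. They are 10 of the 12393 genes that the array annotation names. Every probe set annotated to exactly 1 gene, that gene being one of the 10, was taken, which gave 19 probe sets of 20380 with a single gene.

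RNA was measured on Affymetrix mouse 430A arrays after mature adipocytes of both lines had received rosiglitazone (RSG), a thiazolidinedione that activates the nuclear receptor PPARγ, or its solvent DMSO. 3T3-L1 is a mouse preadipocyte line, and C3H/10T1/2 is a mouse mesenchymal line that can also form bone, cartilage and muscle cells. RSG was given at 1 µM and DMSO as vehicle, and cells were harvested 1, 2, 4 and 7 hrs as well as 24 and 48 hrs later. There were 71 arrays, 3 for every line, treatment and time but 1: 3T3-L1 with DMSO at 2 hrs had only replicates 2 and 3.

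All groups, DMSO included, had first met RSG during differentiation, at 100 nM for 2 days together with insulin, isobutylmethylxanthine and dexamethasone in 3T3-L1 cells and at 10 µM for 6 days together with insulin in C3H/10T1/2 cells. All then spent 24 hrs in medium with 1% bovine serum albumin, to wash RSG out, and the treatments were given in that same medium. The paper terms the albumin essential fatty acid-free and describes the medium as having no serum and no added fatty acids. The cell line therefore cannot be told apart from its differentiation protocol. A sample pooled 2 wells, and the 3 replicates of a group came from 3 differentiation batches.

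In new fatty acid synthesis, carbon leaves the mitochondrion as citrate, and ATP citrate lyase (Acly) splits it in the cytosol to acetyl-CoA. Acetyl-CoA carboxylases (Acaca in the cytosol, Acacb at the outer mitochondrial membrane) make malonyl-CoA, which fatty acid synthase (Fasn) joins into palmitate with NADPH from malic enzyme (Me1) and the pentose phosphate pathway. Elovl6 then lengthens the chain, and the stearoyl-CoA desaturases (Scd1, Scd2) put a double bond into it. SREBP-1 (Srebf1) and ChREBP (Mlxipl) are known to raise transcription of these genes with insulin and with glucose.

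Because the results below turn in part on Fasn, Acly, Acacb and Me1, the 250 bases before a RefSeq start site of each are shown. They are given on build GRCm38.p6, 5′ to 3′ on the strand of the gene. Fasn lies at chr11:120824548-120824797 (minus strand), Acly at chr11:100528001-100528250 (minus strand), Acacb at chr5:114165268-114165517 (plus strand) and the first Me1 promoter at chr9:86695915-86696164 (minus strand). Capitals mark matches, on either strand, to the CCAAT box (CCAAT), the GC box (GGGCGG), the E-box (CACGTG) and the core of the sterol regulatory element (TCACNCCAC).
Fasn: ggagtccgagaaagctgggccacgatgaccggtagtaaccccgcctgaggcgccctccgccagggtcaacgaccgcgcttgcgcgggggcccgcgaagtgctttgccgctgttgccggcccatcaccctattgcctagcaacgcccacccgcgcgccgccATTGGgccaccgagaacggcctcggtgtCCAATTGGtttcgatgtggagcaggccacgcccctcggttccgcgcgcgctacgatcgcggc
Acly: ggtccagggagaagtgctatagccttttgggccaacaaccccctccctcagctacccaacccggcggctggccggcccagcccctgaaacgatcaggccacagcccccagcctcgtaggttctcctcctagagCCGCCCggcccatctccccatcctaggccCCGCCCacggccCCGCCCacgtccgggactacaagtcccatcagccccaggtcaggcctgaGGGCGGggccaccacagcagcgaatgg
Acacb: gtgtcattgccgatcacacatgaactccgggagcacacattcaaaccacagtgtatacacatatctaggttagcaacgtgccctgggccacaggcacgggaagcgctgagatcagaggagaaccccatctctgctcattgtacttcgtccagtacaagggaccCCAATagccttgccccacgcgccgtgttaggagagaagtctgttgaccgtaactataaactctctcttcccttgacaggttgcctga
Me1: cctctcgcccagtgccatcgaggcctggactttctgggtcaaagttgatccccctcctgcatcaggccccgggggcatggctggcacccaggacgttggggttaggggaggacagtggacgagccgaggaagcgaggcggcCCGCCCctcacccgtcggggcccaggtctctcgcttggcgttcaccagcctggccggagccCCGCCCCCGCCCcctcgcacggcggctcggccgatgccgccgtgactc

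The Fasn stretch held 3 CCAAT boxes, the last 2 of which overlap, and the Acacb stretch held 1. The Acly stretch held 4 GC boxes and the Me1 stretch 3, of which 2 lie end to end. Of all 32851 RefSeq promoters of 300 bases (250 before to 50 after the start), 37.4% had a CCAAT box and 35.7% a GC box, so that these letters are common.

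RefSeq promoters were at hand for 8 of the 10 genes, 12 promoters in all, with no entry used for Scd1 and Scd2. Of the 12 promoters, 1 of 3 for Srebf1 had GC boxes alone, 1 a CCAAT box alone and 1 both, and 1 of 2 for Mlxipl had the E-box (7.15% of all promoters). The other Mlxipl promoter held the sterol regulatory element core as tcacaccac (1.24% of all promoters). The 1 promoter listed for Acaca and the 1 for Elovl6 had none of the motifs, and other start sites of these genes were not searched. None of the 12 promoters had a direct repeat of AGGTCA with a spacer of 1 base (0.0396% of all promoters) or 4 bases (0.0152%). A match here is a match of letters only.

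Signals below are MAS 5.0 intensities on a linear scale, and the presence limit is the signal above which the study's methods took a probe set as present, set from negative control probe sets. Differences between groups are log2 ratios (RSG over DMSO) with their standard error (SE) from limma, and a probe set was called at a Benjamini-Hochberg adjusted p under 0.05 over all probe sets of a comparison. For a gene with several probe sets, the one with the highest mean signal stands for it: 1451666_at for Acly, 1415964_at for Scd1, 1415822_at for Scd2, 1417404_at for Elovl6 and 1430307_a_at for Me1. In each line, 17 of the 19 probe sets were tested. The remaining 2, Acly 1439445_x_at and 1438389_x_at, were under the presence limit on every array but 1, which read 20.1, and allow only that bound.

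Most arrays of a line were alike in the following summaries. The median signal lay between 50.2 and 64.2 in 3T3-L1 and between 38.2 and 46.9 in C3H/10T1/2 adipocytes, and the 3′/5′ signal ratio of Gapdh lay between 0.727 and 0.922 and between 0.714 and 0.874. The lowest 3T3-L1 median and share of probe sets present (67.8%) were those of DMSO replicate 3 at 1 hr. The highest 3T3-L1 Gapdh ratio was that of DMSO replicate 1 at 48 hrs. In its group this array was lowest for all tested Acly, Scd2, Acacb and Acaca probe sets. It was also lowest for Srebf1, Mlxipl, the main Me1 and the second Scd1 probe set. It was not for Fasn or the main Scd1 and Elovl6 probe sets. Without it the 48-hr RSG calls of Acly, Scd2, Fasn and Me1 held and that of Acacb was lost. All 9 adipocyte markers with a probe set, Adipoq and Fabp4 among them, were above the presence limit in every group of both lines. The summed signal of 12 preadipocyte and fibroblast markers was lower with RSG. In 3T3-L1 it was 15704.4 to 20347.3 with RSG against 21104.2 to 25381.4 with DMSO at 24 hrs and 17925.1 to 19473.4 against 25196.5 to 25905.9 at 48 hrs. The C3H/10T1/2 sum was 12618 to 14361.4 with RSG against 16988.4 to 20704.1 with DMSO at 24 hrs and 12664.8 to 14340.2 against 16768.7 to 17071 at 48 hrs. Of these markers 4 of 12 at 24 hrs and 6 of 12 at 48 hrs were called lower in 3T3-L1, 4 of 11 and 5 of 11 in C3H/10T1/2, and 0 higher. The share called lower over all tested probe sets was 6.97% and 8.09% for 3T3-L1, with 4.07% and 2.62% for C3H/10T1/2. The summed signal of the adipocyte markers in 3T3-L1 was 37069.2 to 45160 with RSG against 27864 to 35350.5 with DMSO at 24 hrs, and 31945.1 to 43478.7 against 29329.1 to 35048.1 at 48 hrs. For C3H/10T1/2 it was 28017.7 to 35681.5 with RSG against 26418.5 to 29494.2 with DMSO at 24 hrs, and 27833.4 to 34567.4 against 28366.6 to 31646.5 at 48 hrs. Of the 9 adipocyte markers 3 were called higher and 1 lower at each of these times in 3T3-L1. The counts for C3H/10T1/2 were 1 higher and 0 lower at 24 hrs, then 1 higher and 1 lower at 48 hrs. The share called higher over all tested probe sets was 4.79% and 6.20% for 3T3-L1, with 3.65% and 2.79% for C3H/10T1/2.

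The summed signal of 6 brown adipocyte markers was higher with RSG in both lines at 24 and 48 hrs, while Ucp1 and Zic1 were under the presence limit in every group. In 3T3-L1 it was 439.4 to 613.9 with RSG against 247.5 to 264.5 with DMSO at 24 hrs and 766 to 1186.7 against 283 to 290.5 at 48 hrs. The C3H/10T1/2 sum was 742.5 to 1137.4 with RSG against 281 to 604.2 with DMSO at 24 hrs and 776.1 to 1006.1 against 239.1 to 392.3 at 48 hrs. The highest sums rest mostly on Cidea, which reached 975 in 3T3-L1 and 1931 in C3H/10T1/2. No other marker of the list read above 141.5 in 3T3-L1 or 173.7 in C3H/10T1/2. Of 4 brown markers tested, RSG raised 2 at 24 hrs and 1 at 48 hrs for 3T3-L1, with 3 and then 2 for C3H/10T1/2, and 0 were lower. The share called higher over all tested probe sets was 4.79% and 6.20% for 3T3-L1, and 3.65% and 2.79% for C3H/10T1/2. The part of these markers in the results below was not tested, and in such bulk samples fewer cells of a type and less RNA per cell cannot be told apart.

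Within the first 7 hrs RSG moved no probe set of the 10 genes past the threshold in either line. In 3T3-L1 adipocytes 0 of 17 were called at 1, 2, 4 and 7 hrs, where limma called 0.0666%, 0.172%, 0.716% and 2.04% of all tested probe sets in either direction. The count in C3H/10T1/2 adipocytes was also 0 of 17 at each of these times, against 0.0434%, 0.229%, 0.763% and 2.85% of all. At an unadjusted p under 0.05, limma counted in 3T3-L1 0 at 1 hr, 1 higher at 2 hrs (Mlxipl), 2 lower at 4 hrs and 3 lower at 7 hrs, and in C3H/10T1/2 0, 0, 2 lower and 3 lower. At 7 hrs 6.89% of all probe sets were lower by that measure in 3T3-L1, and 8.53% in C3H/10T1/2.

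Scd2, a desaturase of many tissues, was among those with lower values at 7 hrs in both lines. In 3T3-L1 adipocytes 1415822_at read 1631.2, 1593 and 1266.3 with RSG against 1889.1, 2341.1 and 1750.7 with DMSO. All 3 RSG arrays lay below all 3 DMSO arrays, with a log2 ratio of -0.41 ± 0.14 (SE, adjusted p = 0.15). For C3H/10T1/2 adipocytes it read 2402.6, 2251.3 and 1617.7 with RSG against 3182.9, 2472.1 and 2481.9 with DMSO, again without overlap (-0.39 ± 0.14, adjusted p = 0.145).

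The other Scd2 probe sets also had values below 0 at 7 hrs, 1415823_at -0.80 (adjusted p = 0.0535) and 1415824_at -0.52 (0.745) for 3T3-L1, with -0.32 (0.396) and -0.54 (0.178) for C3H/10T1/2 adipocytes. Within C3H/10T1/2 the replicate number marks arrays that deviate together. Fitted with it as a block (the replicate block), Scd2 1415822_at (adjusted p = 0.0326) and 1415824_at (0.0172) were called lower at 7 hrs, 2 of 17 against 2.98% of all probe sets. Srebf1 in 3T3-L1 adipocytes read 454.3, 500.2 and 603.6 with RSG against 686.3, 749.7 and 704.9 with DMSO at 7 hrs, no overlap but not past the threshold (-0.47 ± 0.15, adjusted p = 0.102).

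**Figure D1:**
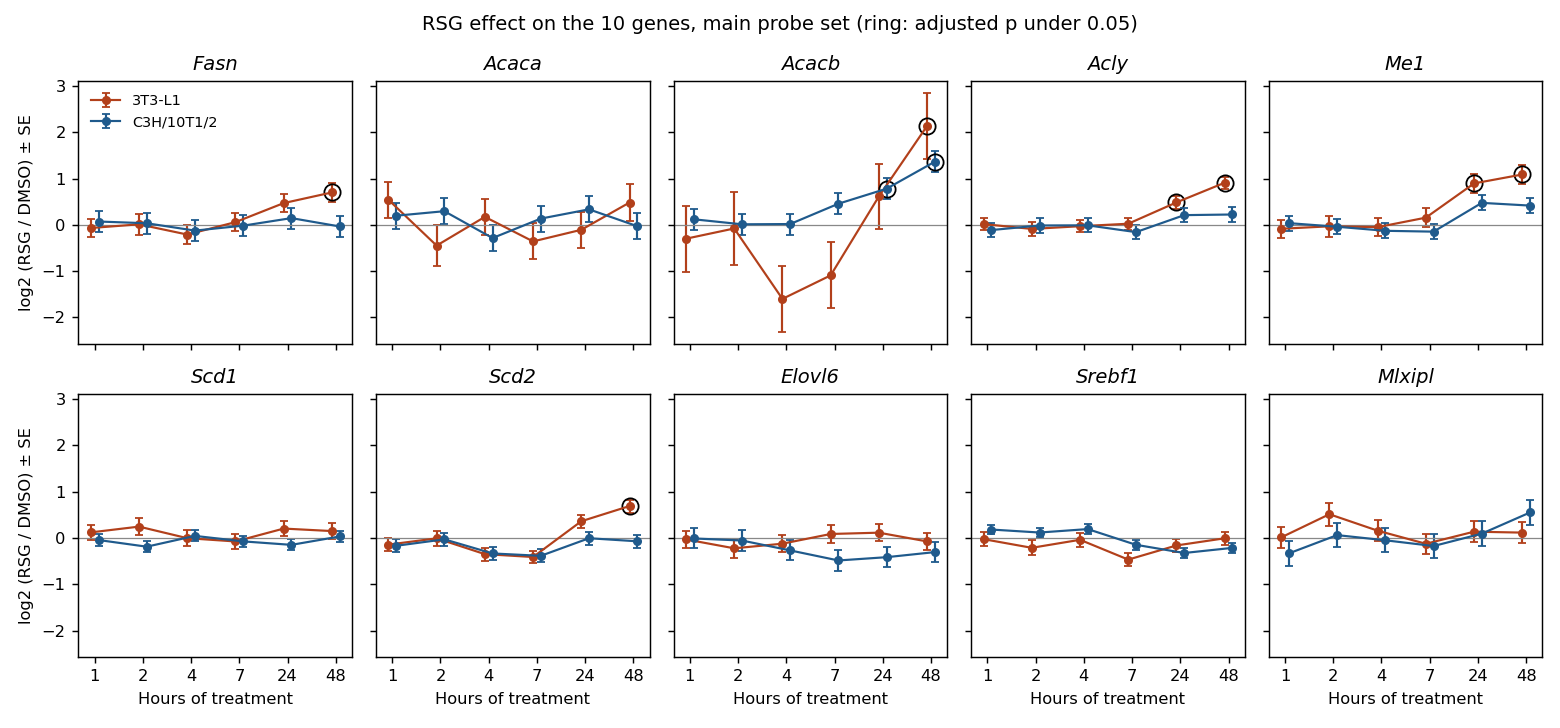
Log2 ratio of RSG over DMSO (y axis, mean ± SE from limma) against time in hrs (x axis) for the main probe set of each of the 10 genes in 3T3-L1 adipocytes and in C3H/10T1/2 adipocytes. Rings mark an adjusted p under 0.05 and appear only at 24 and 48 hrs, for Acly, Me1, Scd2, Fasn and Acacb in 3T3-L1 and for Acacb in C3H/10T1/2 adipocytes.

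By 48 hrs 5 of the 10 genes were called higher with RSG in 3T3-L1 adipocytes: Acly, Acacb, Fasn, the NADPH source Me1 and the desaturase Scd2. Acaca, the carboxylase between Acly and Fasn in the cytosol, was not called. At 24 hrs 3 of the 17 probe sets were called higher (1 each of Acly, Me1 and Scd2), where 4.79% of all tested probe sets were higher, and 0 were lower, where 6.97% of all were lower. At 48 hrs 9 of 17 were higher, against 6.20% of all, and 0 lower, against 8.09% of all. At an unadjusted p under 0.05 the count lower was 0 at both times, against 14.0% and 14.6% of all, and the counts higher were 7 and 11, against 9.26% and 10.8% of all. Of the 9 probe sets, Acly and Scd2 had 3 each, and Me1, Fasn and Acacb had 1 each. The median log2 ratio of the 17 was 0.36 at 24 hrs and 0.70 at 48 hrs, and that of all tested probe sets -0.01 and -0.03.

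Acly, which opens the pathway, was called at both times in 3T3-L1 adipocytes. At 24 hrs 1451666_at read 1242, 1356.5 and 1200.9 with RSG against 876.6, 907.3 and 924 with DMSO. At 48 hrs it read 1526.3, 1779 and 1723.8 with RSG against 765.4, 894.6 and 1025.9 with DMSO. Each time the lowest RSG array lay above the highest DMSO array, and the log2 ratio was 0.49 ± 0.13 at 24 hrs (adjusted p = 0.0139) and 0.91 ± 0.13 at 48 hrs (1.01e-05), a 1.88-fold difference. The other tested Acly probe sets were called at 48 hrs as well, 1439459_x_at with 0.82 ± 0.18 and 1425326_at with 1.43 ± 0.25. At 24 hrs they had 0.15 and 0.65 and were not called. Without the second RSG array the 24-hr call of 1451666_at was lost (adjusted p = 0.0642), and the 48-hr calls of all 3 held without any 1 array.

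Me1, which makes NADPH while turning malate to pyruvate, was called at both times in 3T3-L1 adipocytes by its main probe set. At 24 hrs 1430307_a_at read 1407.2, 1092.2 and 1039.2 with RSG against 843.2, 544.7 and 537.9 with DMSO. At 48 hrs it read 1487, 1192.3 and 1417.7 with RSG against 450.7, 715.4 and 808.2 with DMSO. The groups did not overlap at either time, and the log2 ratio was 0.90 ± 0.20 (adjusted p = 0.00218) and 1.09 ± 0.20 (0.00019), calls that held without any 1 array. The second Me1 probe set, 1416632_at, had 0.44 and 0.43 and was not called (adjusted p = 0.0674 and 0.0654).

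Fasn, whose product is palmitate, was called at 48 hrs in 3T3-L1 adipocytes. Its single probe set, 1423828_at, read 962.5, 1123.9 and 1169.3 with RSG against 805.9, 712.3 and 825.9 with DMSO at 24 hrs, and 812.6, 1459.6 and 1055 with RSG against 674.8, 693.4 and 621.1 with DMSO at 48 hrs. The RSG arrays lay above the DMSO arrays at both times. The log2 ratio was 0.47 ± 0.20 at 24 hrs (adjusted p = 0.131) and 0.70 ± 0.20 at 48 hrs (0.0138). The highest RSG array weighed in the 48-hr call: without replicate 2 the ratio was 0.48 and the adjusted p 0.146.

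Of the carboxylases, only Acacb was called. Acacb, whose malonyl-CoA restrains entry of fatty acids into mitochondria, read 114.4, 144.1 and 109 with RSG against 6.1, 56.6 and 60.8 with DMSO at 48 hrs in 3T3-L1 adipocytes. All RSG arrays were above all DMSO arrays, with a log2 ratio of 2.14 ± 0.71 (adjusted p = 0.0399). The DMSO array at 6.1, replicate 1, is under the presence limit, and without it the Acacb ratio was 1.05 (adjusted p = 0.404). The Acacb call was also lost without any 1 of the 3 RSG arrays. At 24 hrs Acacb had 0.62 ± 0.71. Acaca, the carboxylase that feeds Fasn, lay between 22.2 and 90.1 on all 3T3-L1 arrays, with a log2 ratio of -0.11 at 24 hrs and 0.48 ± 0.39 at 48 hrs (adjusted p = 0.497).

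**Figure D2:**
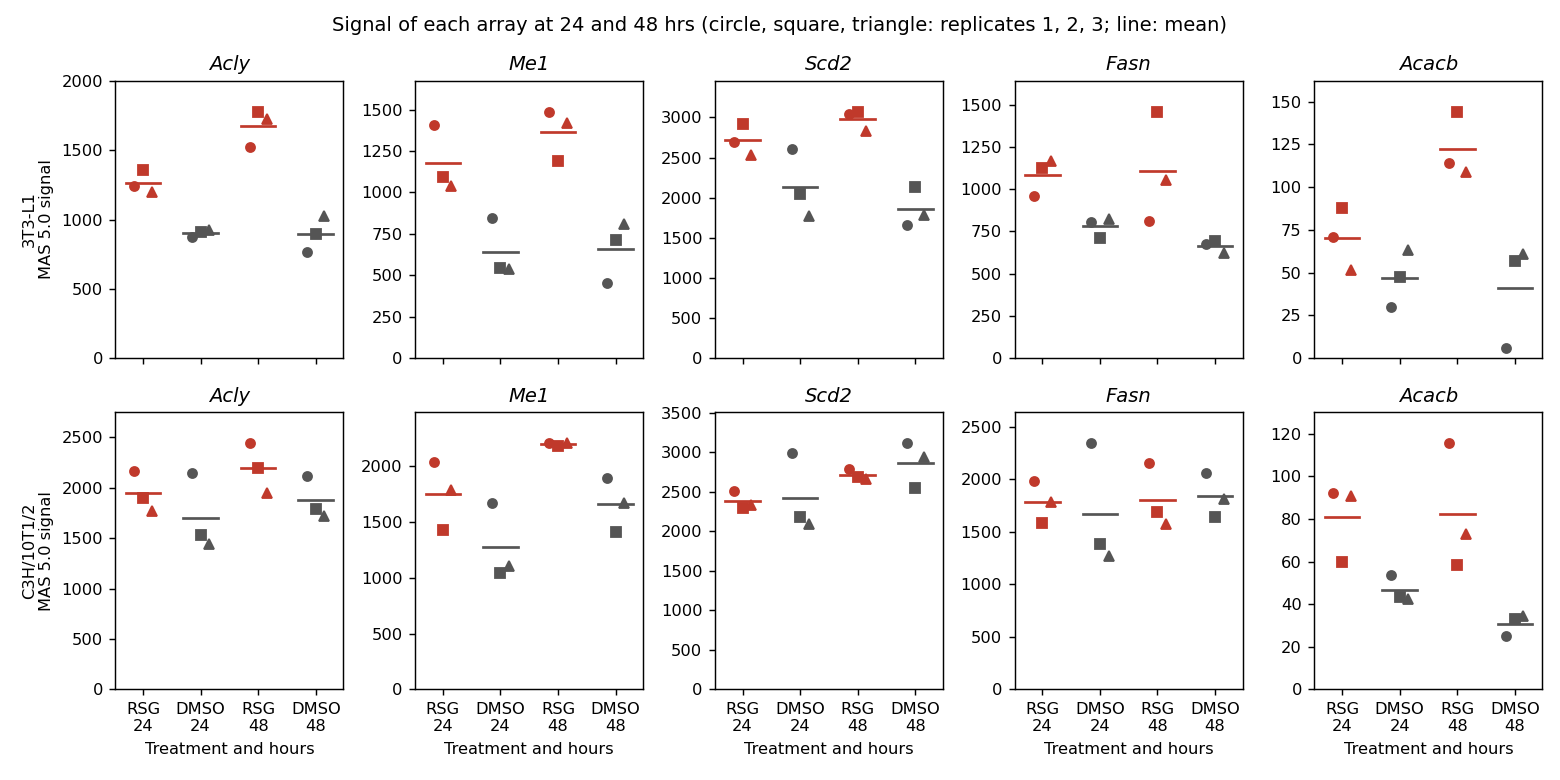
Signal of each array (y axis, MAS 5.0 intensity from 0) for Acly, Me1, Scd2, Fasn and Acacb at 24 and 48 hrs, 3T3-L1 in the upper row and C3H/10T1/2 in the lower, RSG left of DMSO, with a bar at each group mean. In 3T3-L1 at 48 hrs the RSG points of all 5 genes lie above the DMSO points, and in C3H/10T1/2 this is so for Acacb and Me1 alone.

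Of the desaturases Scd2 was called and Scd1 was not, with all arrays and no replicate block. Scd2 passed the test by all 3 of its probe sets at 48 hrs in 3T3-L1. The main one, 1415822_at, read 3041.1, 3070.7 and 2829.6 with RSG against 1663.3, 2127.4 and 1781.6 with DMSO. The second, 1415823_at, read 1527.8, 2112.5 and 1636.8 with RSG against 369, 892.5 and 801.6 with DMSO. The groups were apart for all 3, and the log2 ratios were 0.69 ± 0.14 (adjusted p = 0.00067), 1.44 ± 0.22 (2.28e-05) and, for 1415824_at, 1.97 ± 0.44 (0.00194). DMSO replicate 1, which also had the highest Gapdh 3′/5′ ratio of its line (0.922), was the lowest array for each. Without it the ratio of 1415824_at was 1.11 and still called (adjusted p = 0.0391), as were the others. At 24 hrs only 1415823_at was called (0.76 ± 0.22, adjusted p = 0.0215), a call lost without RSG replicate 1 or DMSO replicate 3.

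Scd1, the main desaturase of fat and liver, was not called at any time with all arrays and no replicate block. Its main probe set, 1415964_at, read 6579.5, 7729.5 and 5263.5 with RSG against 6172.7, 5979.1 and 5320 with DMSO at 48 hrs in 3T3-L1. The groups overlapped, with a log2 ratio of 0.15 ± 0.17 (adjusted p = 0.674). The second, 1415965_at, read 1065.1, 2095 and 1403.7 with RSG against 358.9, 1444.1 and 1196.4 with DMSO, which also overlapped (0.78 ± 0.32, adjusted p = 0.115). This probe set was called with the replicate block (adjusted p = 0.029), although the number may not pair arrays in 3T3-L1. It was also called without DMSO replicate 2 (1.16, adjusted p = 0.0179). Members of the Scd family are alike in sequence, so signal shared between Scd1 and Scd2 probe sets cannot be told apart here.

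Elovl6, Srebf1 and Mlxipl were not called at any time in 3T3-L1 adipocytes without the replicate block. With it, Srebf1 was called lower at 7 hrs (-0.47, adjusted p = 0.0244), although the number may not pair arrays in 3T3-L1. Elovl6 1417404_at read 83.6, 80.4 and 82 with RSG against 90, 80.8 and 88.6 with DMSO at 48 hrs (-0.08 ± 0.19, adjusted p = 0.87). Srebf1 read 552.2, 607.9 and 579.3 with RSG against 497.2, 607.1 and 653.9 with DMSO (-0.01 ± 0.15). Mlxipl read 105.5, 83.5 and 85.4 with RSG against 67.5, 91.3 and 96 with DMSO (0.12 ± 0.22). In all 3 genes the groups overlapped.

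**Figure D3:**
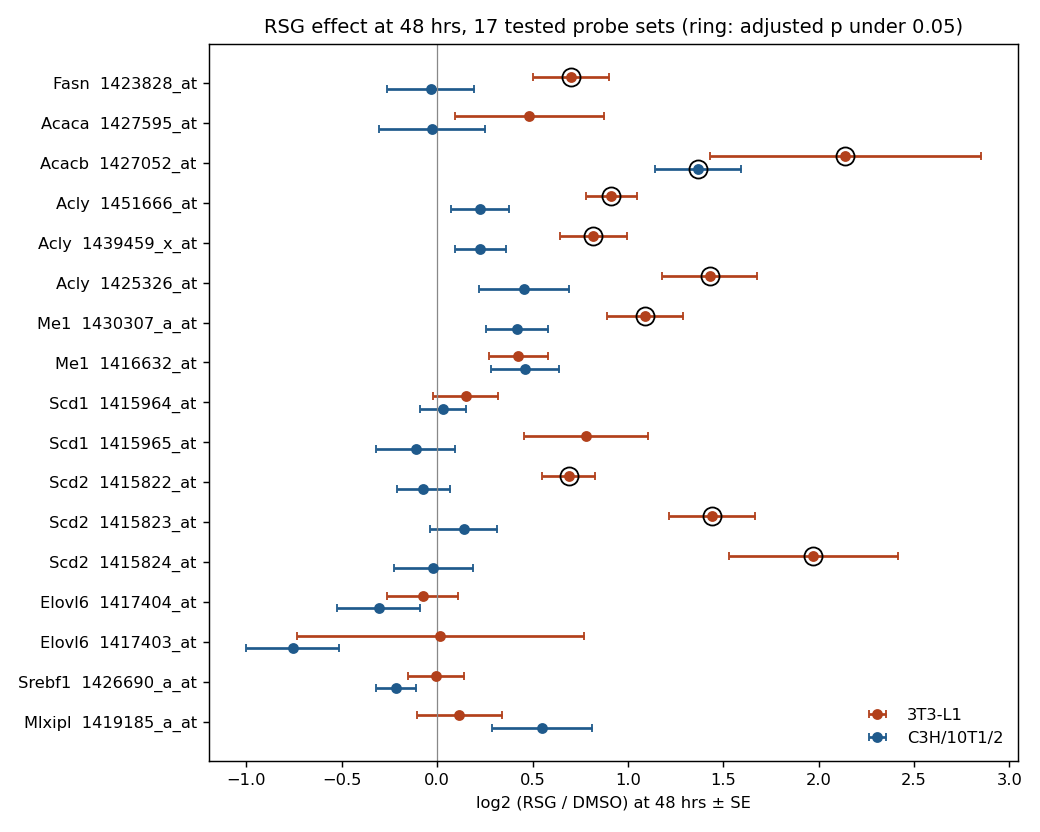
Log2 ratio of RSG over DMSO at 48 hrs (x axis, mean ± SE from limma) for the 17 tested probe sets (rows) in 3T3-L1 adipocytes and in C3H/10T1/2 adipocytes, with rings at an adjusted p under 0.05. In 3T3-L1 9 probe sets are ringed, all of Acly and Scd2 among them, and in C3H/10T1/2 only that of Acacb.

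In 3T3-L1 adipocytes the RSG effect on Acly and Scd2 was larger at 48 than at 7 hrs. The difference of the effects (48 hrs minus 7 hrs) was called for 6 of 17 probe sets, all higher, against 1.41% of all. These were the 3 of Acly (0.89 ± 0.19, adjusted p = 0.00631 for 1451666_at) and the 3 of Scd2 (1.10 ± 0.20, adjusted p = 0.00101 for 1415822_at, and 2.25 ± 0.32, 4.17e-05 for 1415823_at). Without the first DMSO array of 48 hrs, 3 of the 6 were called: Acly 1451666_at and Scd2 1415822_at and 1415823_at, which held without any 1 of the 12 arrays. The count in C3H/10T1/2 adipocytes was 0 of 17 by limma, against 0.323% in either direction, with 3 higher at an unadjusted p under 0.05 (4.79% of all). With the replicate block Acly 1425326_at was called there (0.78 ± 0.19, adjusted p = 0.0255). In 3T3-L1, where the number may not pair arrays, the block added Acacb (3.23 ± 0.95, adjusted p = 0.0431) and Me1 1430307_a_at (0.93 ± 0.24, 0.0204). Both were also called without the third 3T3-L1 DMSO array of 48 hrs (adjusted p = 0.0419 and 0.0312).

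In C3H/10T1/2 adipocytes Acacb was called at both times and Me1 at 24 hrs. At 24 hrs 2 of 17 probe sets were called higher (Acacb and Me1 1416632_at), against 3.65% of all, and 0 lower, against 4.07%. At 48 hrs 1 was higher (Acacb), against 2.79%, and 0 lower, against 2.62%, and a count of 1 does not set the list apart from that share. At an unadjusted p under 0.05 the counts higher were 3 and 4, against 7.73% and 7.64% of all. The counts lower were 2 and 2, against 12.2% and 8.83% of all. The median log2 ratio of the 17 was 0.14 and 0.03, against -0.07 and -0.01 for all probe sets.

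Acacb read 92.2, 60 and 90.8 with RSG against 53.7, 43.4 and 42.3 with DMSO at 24 hrs, and 115.6, 58.2 and 72.7 with RSG against 25.2, 32.8 and 34.5 with DMSO at 48 hrs. The RSG arrays were above the DMSO arrays at both times. The log2 ratio was 0.78 ± 0.23 (adjusted p = 0.0289) and 1.37 ± 0.23 (0.000183). The 48-hr Acacb call held without any 1 array, and the 24-hr call was lost without RSG replicate 1 or 3 or DMSO replicate 2 or 3 (adjusted p up to 0.131).

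Me1 was called by 1 of its 2 probe sets at 24 hrs and by neither at 48 hrs. Its 1430307_a_at read 2041.1, 1425.2 and 1785.7 with RSG against 1667.2, 1045.3 and 1105.7 with DMSO at 24 hrs, which overlapped, and 2205.6, 2180.4 and 2206.5 against 1889.9, 1413.8 and 1665.5 at 48 hrs, which did not. The log2 ratio was 0.48 ± 0.16 (adjusted p = 0.068) and 0.42 ± 0.16 (0.15). Me1 1416632_at, with 582, 469.8 and 410.1 with RSG against 383.7, 329.4 and 267 with DMSO at 24 hrs, had 0.58 ± 0.18 (adjusted p = 0.0419), a call lost without RSG replicate 1 or 2 or DMSO replicate 2 or 3 (adjusted p up to 0.223), and 0.46 ± 0.18 at 48 hrs (0.15).

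Under the replicate block, both Me1 probe sets were called at 24 hrs (adjusted p = 0.00305 and 0.000163) and 48 hrs (0.0111 and 0.00238). The block left 3 of 17 higher at 24 hrs, against 5.36% of all, and 1 lower, against 7.27%. At 48 hrs it gave 4 higher, against 4.56%, and 1 lower, against 4.87%. The added calls at 48 hrs were Acly 1425326_at (0.45 ± 0.13, adjusted p = 0.0252) and, lower, Elovl6 1417403_at (-0.76 ± 0.19, 0.00809). Elovl6 1417403_at read 41.2, 43.3 and 39.1 with RSG against 75.9, 75.4 and 58.8 with DMSO, without overlap.

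Srebf1 was the lower call at 24 hrs under that block (adjusted p = 0.0282), and without the block it was just short of the threshold (-0.32 ± 0.10, adjusted p = 0.052). Without the block it was called lower under quantile normalization (-0.44 ± 0.10, adjusted p = 0.00527) and with low signals raised to the presence limit (adjusted p = 0.0463). It was also called by the study's own test with Benjamini-Hochberg adjustment (adjusted p = 0.0342). It read 1495.1, 1583.3 and 1690.1 with RSG against 1951.7, 1859.1 and 2166.2 with DMSO at 24 hrs, and 1605.7, 1579.9 and 1570.6 against 1823.9, 1912 and 1783.4 at 48 hrs. At both times all RSG arrays lay below all DMSO arrays, and the 48-hr ratio was -0.21 ± 0.10 (adjusted p = 0.302).

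Fasn, Acaca, Scd1, Scd2 and Mlxipl gave no call in C3H/10T1/2 adipocytes at 24 or 48 hrs, with or without the block. Fasn had 0.15 ± 0.23 at 24 hrs and -0.03 ± 0.23 at 48 hrs, with 2155.5, 1685.1 and 1577.6 with RSG against 2059, 1645.5 and 1810.8 with DMSO at 48 hrs. Scd2 1415822_at read 2789.8, 2690.3 and 2665.4 with RSG against 3113, 2544 and 2934.4 with DMSO at 48 hrs (-0.07 ± 0.14). Scd1 1415964_at had 0.03 ± 0.12, Acaca -0.03 ± 0.28 and Mlxipl 0.55 ± 0.26 (adjusted p = 0.285) at 48 hrs. The groups overlapped for each, Mlxipl by a tie at 36.5.

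The difference between the lines was tested directly (effect in 3T3-L1 minus effect in C3H/10T1/2). At 48 hrs it was called for 3 of 17 probe sets, the 3 of Scd2, against 0.657% of all probe sets higher. Scd2 1415822_at had 0.76 ± 0.20 (adjusted p = 0.0406), 1415823_at 1.30 ± 0.29 (0.00989) and 1415824_at 1.99 ± 0.51 (0.0331). These calls rested on few arrays. Without the first 3T3-L1 DMSO array of 48 hrs none of the Scd2 probe sets was called: 1415822_at had 0.69 (adjusted p = 0.172), 1415823_at 0.90 (0.132) and 1415824_at 1.13 (0.367). Over the 12 arrays left out in turn, the call of 1415823_at was also lost without 3T3-L1 RSG replicate 2 or C3H/10T1/2 DMSO replicate 3, that of 1415822_at without any but replicate 2 of either DMSO group, and that of 1415824_at without 7 arrays, 3 of 3T3-L1 and 4 of C3H/10T1/2.

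For the other genes the difference between the lines at 48 hrs was not called. Acly 1451666_at had 0.69 ± 0.20 (adjusted p = 0.106), Fasn 0.73 ± 0.31 (0.413), Me1 1430307_a_at 0.67 ± 0.26 (0.33) and Acacb 0.77 ± 0.77 (0.857). The replicate block, set in both lines although the number may not pair arrays in 3T3-L1, left 6 of 17 called, against 1.36% of all higher. The added calls were the 3 of Acly, 1451666_at (0.69 ± 0.13, adjusted p = 0.000779), 1439459_x_at (0.59 ± 0.16, 0.025) and 1425326_at (0.97 ± 0.22, 0.00744). Without the third 3T3-L1 DMSO array of 48 hrs, 1451666_at was also called (adjusted p = 0.0497). A difference between the lines in the RSG effect on Fasn or Me1 was called neither with nor without that block. At 24 hrs 0 of 17 were called by limma, against 0.257% in either direction, with 1 higher at an unadjusted p under 0.05 (4.42% of all).

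With DMSO, Acly, Me1, Acacb and Srebf1 were called against 1 hr at both 24 and 48 hrs in C3H/10T1/2 adipocytes. Acly 1451666_at read 3190.7, 2948.4 and 2988.1 at 1 hr, 2143.5, 1530 and 1437.3 at 24 hrs and 2116.5, 1793.5 and 1722.4 at 48 hrs. Acacb read 74.6, 88.3 and 92.6 at 1 hr, 53.7, 43.4 and 42.3 at 24 hrs and 25.2, 32.8 and 34.5 at 48 hrs. Srebf1 ran the other way, with 880.4, 1134.8 and 1212.2 at 1 hr, 1951.7, 1859.1 and 2166.2 at 24 hrs and 1823.9, 1912 and 1783.4 at 48 hrs. In all 3 genes the arrays of 24 and 48 hrs lay apart from those of 1 hr. Other times were not tested against 1 hr. Fasn with DMSO read 2123, 2612.2 and 1892 at 1 hr and 1602.8, 964.6 and 636.3 at 7 hrs, without overlap. Its mean with DMSO was 1838.43 at 48 hrs. With RSG the Fasn mean was 2312.9 at 1 hr and 1014.1 at 7 hrs.

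At 24 hrs against 1 hr with DMSO, 8 of 17 probe sets were lower, against 5.50% of all, and 1 higher (Srebf1), against 6.25%. At 48 hrs 6 were lower, against 5.12%, and 1 higher (Srebf1), against 5.09%. Srebf1 had 0.90 ± 0.10 (adjusted p = 2.7e-07) and 0.79 ± 0.10 (2.54e-06). Acly 1451666_at had -0.86 and -0.70, Me1 1430307_a_at -1.07 and -0.67 and Acacb -0.88 and -1.47. Scd2 1415822_at and 1415824_at were called lower at 24 hrs alone (-0.48 and -0.67), calls lost without replicate 1 or 3 of 1 hr or replicate 2 or 3 of 24 hrs (adjusted p up to 0.125). The 48-hr call of Me1 1416632_at was lost without any 1 array but replicate 1 of 48 hrs (adjusted p up to 0.17), and that of 1430307_a_at without DMSO replicate 2 of 48 hrs (adjusted p = 0.0544).

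Markers of other cells moved over the same time in these arrays. The summed signal of the brown adipocyte markers with DMSO was 1370.1 to 1958.8 at 1 hr, 281 to 604.2 at 24 hrs and 239.1 to 392.3 at 48 hrs, with 3 of 4 called lower at both later times (median log2 ratio -1.69 and -1.79). Of 11 preadipocyte and fibroblast markers 4 were higher at 24 hrs (median 0.39) and 2 at 48 hrs, with 0 lower. Of the 9 adipocyte markers 1 was higher and 1 lower at 24 hrs, and 3 higher at 48 hrs. Over all tested probe sets 5.50% and 5.12% were lower and 6.25% and 5.09% higher at these times. The brown sum at 1 hr was mostly Cidea, as no other brown marker read above 173.7 in this line. The part of the markers in the result was not tested.

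These DMSO arrays are also the ones that RSG was set against at 24 and 48 hrs. With RSG, Acacb read 86.3, 103.4 and 88.1 at 1 hr, 92.2, 60 and 90.8 at 24 hrs and 115.6, 58.2 and 72.7 at 48 hrs. In 3T3-L1 adipocytes with DMSO, limma called 0 of 17 at 24 hrs against 1 hr (0.949% of all in either direction, with 2 higher unadjusted, against 5.50% of all) and 0 of 17 at 48 hrs (1.96% of all, and 1 higher and 2 lower unadjusted, against 5.95% and 6.72%). Whether the lines differ in this change was not tested.

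**Figure D4:**
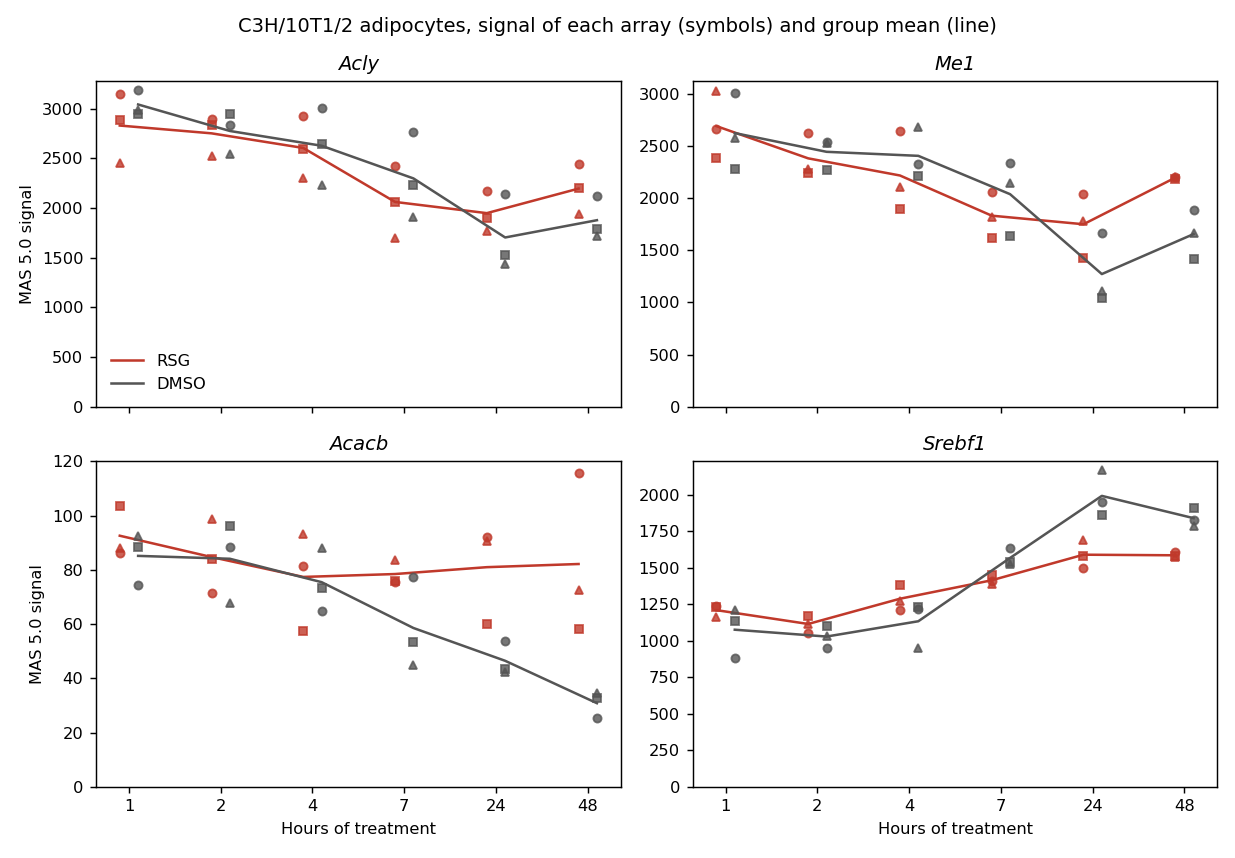
Signal of each array (symbols) and group mean (line) in C3H/10T1/2 adipocytes (y axis, MAS 5.0 intensity) against time in hrs (x axis) for Acly, Me1, Acacb and Srebf1 with RSG and with DMSO. Acly, Me1 and Acacb are lower at 24 and 48 hrs than at 1 hr with DMSO, Srebf1 is higher, and with RSG the means at 48 hrs are above those with DMSO for the enzymes and below for Srebf1.

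Levels with DMSO differed between the lines for most of the genes. Over the 6 times, Fasn had a lowest, median and highest signal of 580.3, 671.8 and 854.7 in 3T3-L1 against 636.3, 1728.15 and 2612.2 in C3H/10T1/2. Acly 1451666_at had 651.2, 773.7 and 1025.9 in 3T3-L1 against 1437.3, 2389.3 and 3190.7 in C3H/10T1/2. Mlxipl had 51.5, 77.3 and 116 in 3T3-L1 against 21.1, 37.55 and 50.9 in C3H/10T1/2. For Acly and Mlxipl the 2 lines did not overlap, and for Fasn they did.

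The mean log2 difference (3T3-L1 minus C3H/10T1/2) was called lower for 13 of 17 probe sets, against 22.4% of all, and higher for 1, against 55.1%. It was -1.24 ± 0.09 for Fasn, -1.55 ± 0.06 for Acly 1451666_at, -1.65 ± 0.08 for Me1 1430307_a_at, -1.15 ± 0.05 for Srebf1, -0.93 ± 0.08 for Elovl6 1417404_at, -0.87 ± 0.23 for Acacb and -0.48 ± 0.06 for Scd2 1415822_at. Mlxipl stood alone on the other side (1.06 ± 0.10, adjusted p = 1.23e-13). Acaca (0.26, adjusted p = 0.103) and Scd1 1415964_at (0.11, 0.0985) were not called, and both changed sign under quantile normalization (-0.15 and -0.02).

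The median of all tested probe sets in this comparison was 0.32 and that of the 17 was -0.97. Quantile normalization of the arrays brought the median of all to 0.08. Under it Fasn had -1.08, Acly 1451666_at -1.40 and Mlxipl 0.67, all still called. None of the 14 calls was lost without any 1 of the 35 DMSO arrays. Of 12 preadipocyte and fibroblast markers 8 were called higher in 3T3-L1 and 2 lower (median 0.98), and of 9 adipocyte markers 6 higher and 1 lower. All 4 tested muscle markers were higher. Of 7 tested osteoblast and chondrocyte markers 5 were higher and 2 lower, and of 4 brown markers 2 and 2. Over all tested probe sets 55.1% were higher and 22.4% lower, and such small counts are not set apart from those shares. The part of the markers in the difference was not tested.

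**Figure D5:**
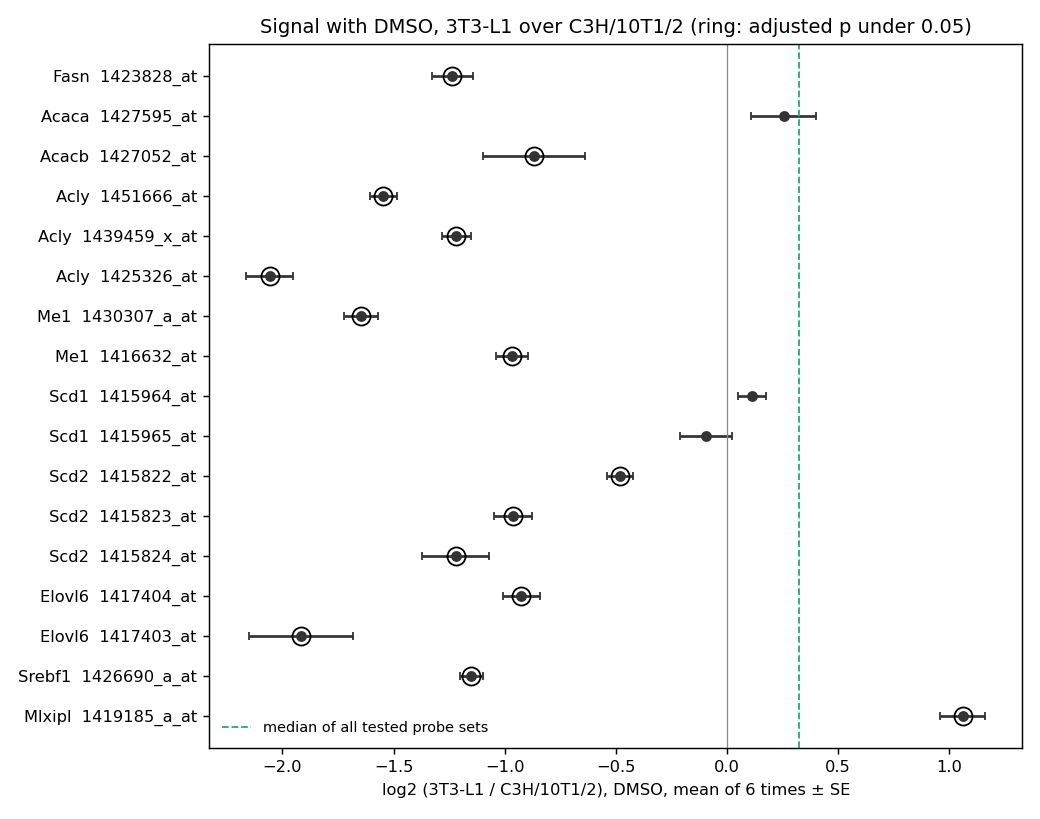
Log2 ratio of 3T3-L1 over C3H/10T1/2 adipocytes with DMSO (x axis, mean of the 6 times ± SE from limma) for the 17 tested probe sets (rows), with rings at an adjusted p under 0.05 and a dashed line at the median of all tested probe sets, 0.32. Mlxipl is the only ringed probe set above 0, and 13 are ringed below 0.

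Beyond the 10 genes, 77 others of the pathway were listed by function, of which 65 had a probe set. In 3T3-L1 adipocytes 24 hrs of RSG left 15 of 64 tested higher and 2 lower, and 48 hrs left 19 higher and 2 lower (median 0.18 and 0.25). For C3H/10T1/2 adipocytes 11 of 63 were higher and 2 lower at 24 hrs, and 8 higher and 2 lower at 48 hrs (median 0.12 and 0.09). Of all tested probe sets, 4.79% and 6.20% were higher and 6.97% and 8.09% lower for 3T3-L1, against 3.65% and 2.79% higher and 4.07% and 2.62% lower for C3H/10T1/2, and these shares stand behind the counts of the shorter lists too. The medians of all tested probe sets were -0.01 and -0.03 for 3T3-L1, and -0.07 and -0.01 for C3H/10T1/2.

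Genes that supply acetyl-CoA and NADPH made up the list with the largest called share in 3T3-L1. Of 11 tested, 8 were higher after 24 hrs and 8 after 48 hrs, and 3 and 1 in C3H/10T1/2, where 1 of 11 is not set apart from 2.79% of all. Acss2, which makes acetyl-CoA from acetate, averaged 694.8 ± 104 with RSG and 207.9 ± 42.3 with DMSO at 48 hrs in 3T3-L1 (SD, n = 3 each), a log2 ratio of 1.75 ± 0.17 (adjusted p from limma 1.19e-08). Pcx, the pyruvate carboxylase that feeds citrate, had 1.02 ± 0.15 at 48 hrs, Pgd of the pentose phosphate pathway 1.08 ± 0.18, Aacs, an acetoacetyl-CoA synthetase, 1.18 ± 0.16, and citrate synthase (Cs) 0.88 ± 0.17. Idh1 and Me2 were not called, with -0.24 and -0.22. At 48 hrs the effect was larger in 3T3-L1 than in C3H/10T1/2 for Acss2, Pcx, Pgd and Aacs by the test of that difference (adjusted p from limma 0.00326, 0.00678, 0.00251 and 0.00696). Whether these calls hold with an array left out was not tested.

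Of the genes of chain elongation and desaturation, 3 of 17 tested were higher and 1 lower at 24 hrs in 3T3-L1, and 5 higher and 1 lower at 48 hrs. C3H/10T1/2 had 3 of 16 higher and 1 lower, then 3 higher and 2 lower. The single lower calls are not set apart from the 6.97%, 8.09% and 4.07% of all probe sets that were lower. Hsd17b12, which reduces the lengthened chain, averaged 2466.6 ± 156 with RSG and 1033.3 ± 125 with DMSO at 48 hrs in 3T3-L1 (SD, n = 3 each), a log2 ratio of 1.26 ± 0.11, and had 0.44 ± 0.08 in C3H/10T1/2, both called. Scd3 was higher in 3T3-L1 (1.12 ± 0.23 at 24 hrs and 1.25 ± 0.23 at 48 hrs), and Elovl3, an elongase of brown fat and skin, in C3H/10T1/2, where it averaged 54.4 ± 18.3 with RSG and 22.8 ± 3.84 with DMSO at 24 hrs (SD, n = 3 each) and had a log2 ratio of 1.12 ± 0.25 at 48 hrs. Hacd4, a dehydratase of the same cycle, fell in both lines. At 48 hrs Hacd4 averaged 59.4 ± 4.37 with RSG and 137.4 ± 26.3 with DMSO in 3T3-L1, and 82.0 ± 27.0 with RSG and 199.4 ± 63.6 with DMSO in C3H/10T1/2 (SD, n = 3 each). Hacd1, a dehydratase of the same family, rose in C3H/10T1/2 (0.74 ± 0.13 at 48 hrs), and Cyb5a, the cytochrome that passes electrons to the desaturases, fell there (-0.52 ± 0.13 at 48 hrs).

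Among 10 tested genes that handle malonyl-CoA or modify the carboxylases and Fasn, 24 hrs of RSG left 1 higher for 3T3-L1 and 2 for C3H/10T1/2, and 48 hrs left 2 and 1, with 0 lower. The shares of all probe sets called higher were 2.79% to 6.20%. Such small counts were not tested against those shares, and no conclusion is drawn from them. Mlycd, which breaks malonyl-CoA down, had 1.38 ± 0.23 at 48 hrs in 3T3-L1 and 0.81 ± 0.21 at 24 hrs in C3H/10T1/2. Thrsp, a lipogenic protein induced by thyroid hormone, averaged 60.2 ± 6.21 with RSG and 24.6 ± 6.36 with DMSO at 24 hrs in C3H/10T1/2 (SD, n = 3 each), a log2 ratio of 1.32 ± 0.19, and had 0.16 ± 0.17 in 3T3-L1. The difference of the Thrsp effects was called (-1.16 ± 0.26, adjusted p from limma 0.0203). With DMSO, Thrsp fell by 2.58 at 24 hrs against 1 hr in C3H/10T1/2 on the log2 scale.

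Of 19 further regulators tested, 1 was higher and 1 lower at 24 hrs and 2 higher and 1 lower at 48 hrs for 3T3-L1, and 1 higher and 1 lower, then 1 higher and 0 lower in C3H/10T1/2. These counts do not stand apart from the shares over all probe sets. Ppargc1b, a coactivator of SREBP-1 and of PPARs, was called at both times in each line, with 1.09 ± 0.18 and 0.99 ± 0.18 for 3T3-L1 and with 1.10 ± 0.25 and 0.91 ± 0.25 for C3H/10T1/2. Rxra, the partner of PPARγ on DNA, fell in 3T3-L1 by 0.60 at 24 hrs and 0.81 at 48 hrs on the log2 scale, and in C3H/10T1/2 by 0.74 at 24 hrs.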

How the data were processed

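RNA from 71 samples was hybridised to Affymetrix 430A arrays. The labels state that RNA samples were randomised before labelling. The deposited intensities are linear MAS 5.0 signals that the authors had background-corrected, with each array scaled to a common target, so that the number of arrays limits the precision given here. Of 22690 probe sets, 64 controls were set aside, 20380 had 1 gene in the platform annotation, 691 several and 1555 none. The 10 genes and all lists were chosen with earlier results of these data known.

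The 132 zeros were set to 0.1, log2 was taken of the deposited intensities with no further scaling, and probe sets whose mean signal reached the presence limit of the study's methods in at least 1 group were tested: 18028 in 3T3-L1, 16123 in C3H/10T1/2 and, for comparisons between lines, the 18274 tested in either line. Linear models with 1 mean per group were fitted per line (35 and 36 arrays), and over 71 arrays for differences between lines, with limma 3.58.1 in R 4.3.3 (eBayes with intensity trend). P-values were adjusted by Benjamini-Hochberg over all tested probe sets, with a threshold of 0.05. The main probe set of a gene was that with the highest mean over all arrays. All members were named, and of the pathway list the 3 largest rises and 3 largest falls per line at 24 and 48 hrs, where called and without overlap of the groups. Other genes of the list are named as examples, chosen after their values were seen. Sequences came from RefSeq promoters (GRCm38.p6). Figures were drawn with Matplotlib 3.10.9 in Python 3.11.15. The fits were tested on simulated data.

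Replicate numbers were checked as pairs through the correlation of deviations from the group means between the RSG array and the DMSO array that carry the same number at a time. In C3H/10T1/2 all 18 correlations were above 0.1 (0.132 to 0.307), so that the number was taken to pair the arrays, and in 3T3-L1 14 of 17 were (0.0187 to 0.261). The main fits, with their counts and figures, leave this pairing out in both lines, and the replicate block was fitted beside them. Alternatives were quantile normalization, a floor on low signals, no filter, no intensity trend, a fit of only the groups compared, the replicate block, the study's own unadjusted test, and leaving out each array.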

Additional observations from a re-analysis of the deposited data

Results flagged for a closer look

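The results listed here are differences between groups that passed a test of the difference itself in limma. The effect of RSG at 48 hrs differed between the lines (3T3-L1 minus C3H/10T1/2) for the 3 probe sets of Scd2, with log2 differences of 0.76 for 1415822_at, 1.30 for 1415823_at and 1.99 for 1415824_at. None was called without the first 3T3-L1 DMSO array of 48 hrs, as described above.

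The effect of RSG in 3T3-L1 adipocytes differed between 48 and 7 hrs (48 minus 7) for Acly, by 0.89 for 1451666_at, 0.89 for 1439459_x_at and 1.35 for 1425326_at, and for Scd2, by 1.10 for 1415822_at, 2.25 for 1415823_at and 2.50 for 1415824_at. Over the 12 arrays left out in turn, the call was lost without 9 for Acly 1439459_x_at, 5 for Acly 1425326_at and 4 for Scd2 1415824_at.

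Of the pathway list, the effect at 48 hrs differed between the lines for Acss2 (1.22), Pgd (1.19), Aacs (1.18), Pcx (0.90) and Hsd17b12 (0.82), each larger in 3T3-L1. At 24 hrs Hsd17b12 differed by 0.56. Thrsp differed by -1.16 at 24 hrs, with the larger effect in C3H/10T1/2. For these genes of the pathway list, neither the alternatives nor leaving out arrays was tried. The differences at 48 hrs draw on the same 3T3-L1 DMSO arrays as those of Scd2.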

How the results depend on the processing

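The main probe sets were recomputed for RSG against DMSO under the alternatives, with a gene's other probe sets counted as alternatives too. Of these 1754 values, 1705 kept their side of the threshold, 21 lost a call, 28 gained one and 0 called values changed sign. Most had no call to begin with, so the 1705 are mainly values that stayed uncalled. Differences between lines, 48 minus 7 hrs and comparisons within DMSO are not among them. Counts below are of 17 probe sets. With the replicate block they were in 3T3-L1 2 (7 hrs) and 6 (24 hrs), in C3H/10T1/2 2 (7 hrs), 4 (24 hrs) and 5 (48 hrs), 6 for the difference between lines at 48 hrs, 1 for 48 minus 7 hrs in C3H/10T1/2 and 1 for DMSO at 48 against 1 hr in 3T3-L1, where the number may not pair arrays. In 3T3-L1 the block added lower calls at 7 hrs for Scd2 1415823_at and Srebf1. Added higher calls were Fasn, Acly 1425326_at and Me1 1416632_at at 24 hrs, and Scd1 1415965_at and Me1 1416632_at at 48 hrs. Without the intensity trend there was 1 in C3H/10T1/2 at 24 hrs and 1 for the difference between lines at 48 hrs, and without a filter 1 in C3H/10T1/2 at 24 hrs. A fit of only the groups compared gave 1 at 7 hrs in 3T3-L1, 0 at 24 hrs in C3H/10T1/2 and 2 for 48 minus 7 hrs in 3T3-L1. The methods' test, unadjusted, gave for 3T3-L1 1 (2 hrs), 1 (4 hrs), 3 (7 hrs) and 7 (24 hrs), and for C3H/10T1/2 2 (4 hrs), 3 (7 hrs), 5 (24 hrs) and 5 (48 hrs), where it called 4.29% to 22.8% of all probe sets for 3T3-L1, with 7.94% to 19.3% for C3H/10T1/2 at these times. Leaving out 1 array gave in 3T3-L1 0 to 1 (7 hrs), 2 to 5 (24 hrs) and 7 to 11 (48 hrs), in C3H/10T1/2 0 to 3 (24 hrs) and 1 to 1 (48 hrs), 0 to 3 for the difference between lines at 48 hrs, 3 to 8 for 48 minus 7 hrs in 3T3-L1, 7 to 10 and 5 to 7 for DMSO at 24 and 48 hrs against 1 hr in C3H/10T1/2, 0 to 1 for DMSO at 48 against 1 hr in 3T3-L1, and 14 to 16 for the lines with DMSO. Fewer arrays or probe sets enter some of these fits by construction, and otherwise the cause was not tested. Signals near the presence limit, as those of Acacb in 3T3-L1, limit precision.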

Other observations

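Mitochondria hold a separate fatty acid synthesis pathway, which feeds lipoic acid. Of its 7 tested genes, RSG left 2 higher at 24 hrs and 2 higher at 48 hrs in each line, and 0 lower, where 4.79% and 6.20% of all tested probe sets were higher for 3T3-L1, and 3.65% and 2.79% for C3H/10T1/2. These small counts were not tested against those shares, and no conclusion is drawn from them. Lias, the lipoic acid synthase, had log2 ratios of 0.43 at 24 hrs and 0.43 at 48 hrs for 3T3-L1 (adjusted p from limma 0.0204 and 0.0164) and of 0.42 and 0.45 for C3H/10T1/2 (0.0178 and 0.0132). Ndufab1, the mitochondrial acyl carrier protein, had 0.70 in 3T3-L1 and 0.47 in C3H/10T1/2 at 24 hrs, and Cbr4 0.51 and 0.31 at 48 hrs, all called.

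Over the 12 group means of each line, the genes whose log2 signal ran most like that of Fasn in both lines, by the lower of the 2 correlations, were Dhcr7 (0.93), Idi1 (0.92) and Sqle (0.92), which encode enzymes of cholesterol synthesis. The median over 9306 genes was -0.31. For Srebf1 they were Eml3 (0.79), Ugcg (0.75) and Socs3 (0.75), with a median of -0.22, and for Mlxipl Doc2g (0.66), Fut4 (0.65) and Sh2b1 (0.64), with a median of -0.13. Fasn correlated with Acly at 0.94 in 3T3-L1 and 0.36 in C3H/10T1/2, and Srebf1 with Acly at -0.32 and -0.94. These are descriptions of 12 means that share arrays and treatment, with no test.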
